A study of Mus musculus with 9 samples.

Results

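The B lineage genes described here are 9 genes whose products build, signal from or control the antigen receptor of B lymphocytes: Cd79a, Cd79b, Cd22, Ighm, Ms4a1, Pax5, Blnk, Blk and Vpreb3. They were found by gene symbol among the probe sets of the deposited array table, and all 9 were present, with 22 of the 45101 probe sets. A probe set was taken when the platform annotation gave it 1 gene symbol, and the probe set with the highest mean over the 9 arrays stood for the gene. All 9 of these passed the filter on dim probe sets, as did 13288 of the 18161 genes on the array.

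RNA of sorted mouse cells was hybridised to 9 arrays. By their labels the samples fall into Control (n = 3), Abnormal non-malignant (n = 3) and a NIC Tumor group (n = 3), and the study as a whole concerned T cell leukemia and the non-malignant effects of too much NOTCH1. The labels give neither the sorted population, the strain, the age, the NOTCH1 construct nor the meaning of NIC, so no genotype can be stated for any group. Nothing in them ties a sample to an animal of its own, so p-values measure only the spread between these samples, which may be technical.

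Commitment to the B lineage is controlled by a small set of transcription factors, among them EBF1 and PAX5, whereas signalling through the receptor NOTCH1 in a lymphoid progenitor favours the T lineage at the expense of the B lineage. The B cell receptor is a membrane immunoglobulin held by the chains CD79A and CD79B, whose cytoplasmic tails are phosphorylated by kinases of the SRC family such as BLK and then recruit SYK and the adaptor BLNK. CD22 is a sialic acid-binding coreceptor that dampens this signal. In RNA from a population, fewer cells of a type and less RNA per cell cannot be told apart.

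T cell markers were bright on every array. Cd3e, an invariant chain of the T cell receptor complex, read 11.76 to 12.36 (log2 signal) on the 9 arrays, and all 10 T cell markers measured passed the array's 40th percentile (5.14 to 5.3) on every array. Signal under that percentile was not told from background here. Ebf1, which initiates the B programme, read 4.13 to 4.35 on 8 arrays and 5.59 on tumor 3, and passed that level on tumor 3 only.

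A few arrays stood apart. Non-malignant 2 and 3 resembled each other most: gene by gene their difference had an SD of 0.16, against 0.3 for controls 1 and 3, the next pair. Where a call of a gene named below was lost with these arrays averaged as 1 sample, the text says so or gives the number of settings that kept the call. Tumor 1 lay nearer to the non-malignant arrays (0.46 to 0.47) than to tumors 2 and 3 (0.63 and 0.79). Control 2 alone carried signal of the Y-linked gene Eif2s3y (8.69, at most 4.18 elsewhere). On tumor 3 the dim probe sets stood higher than on the other arrays, by a median of 0.28, against −0.08 to 0 for each of the others.

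**Figure D1:**
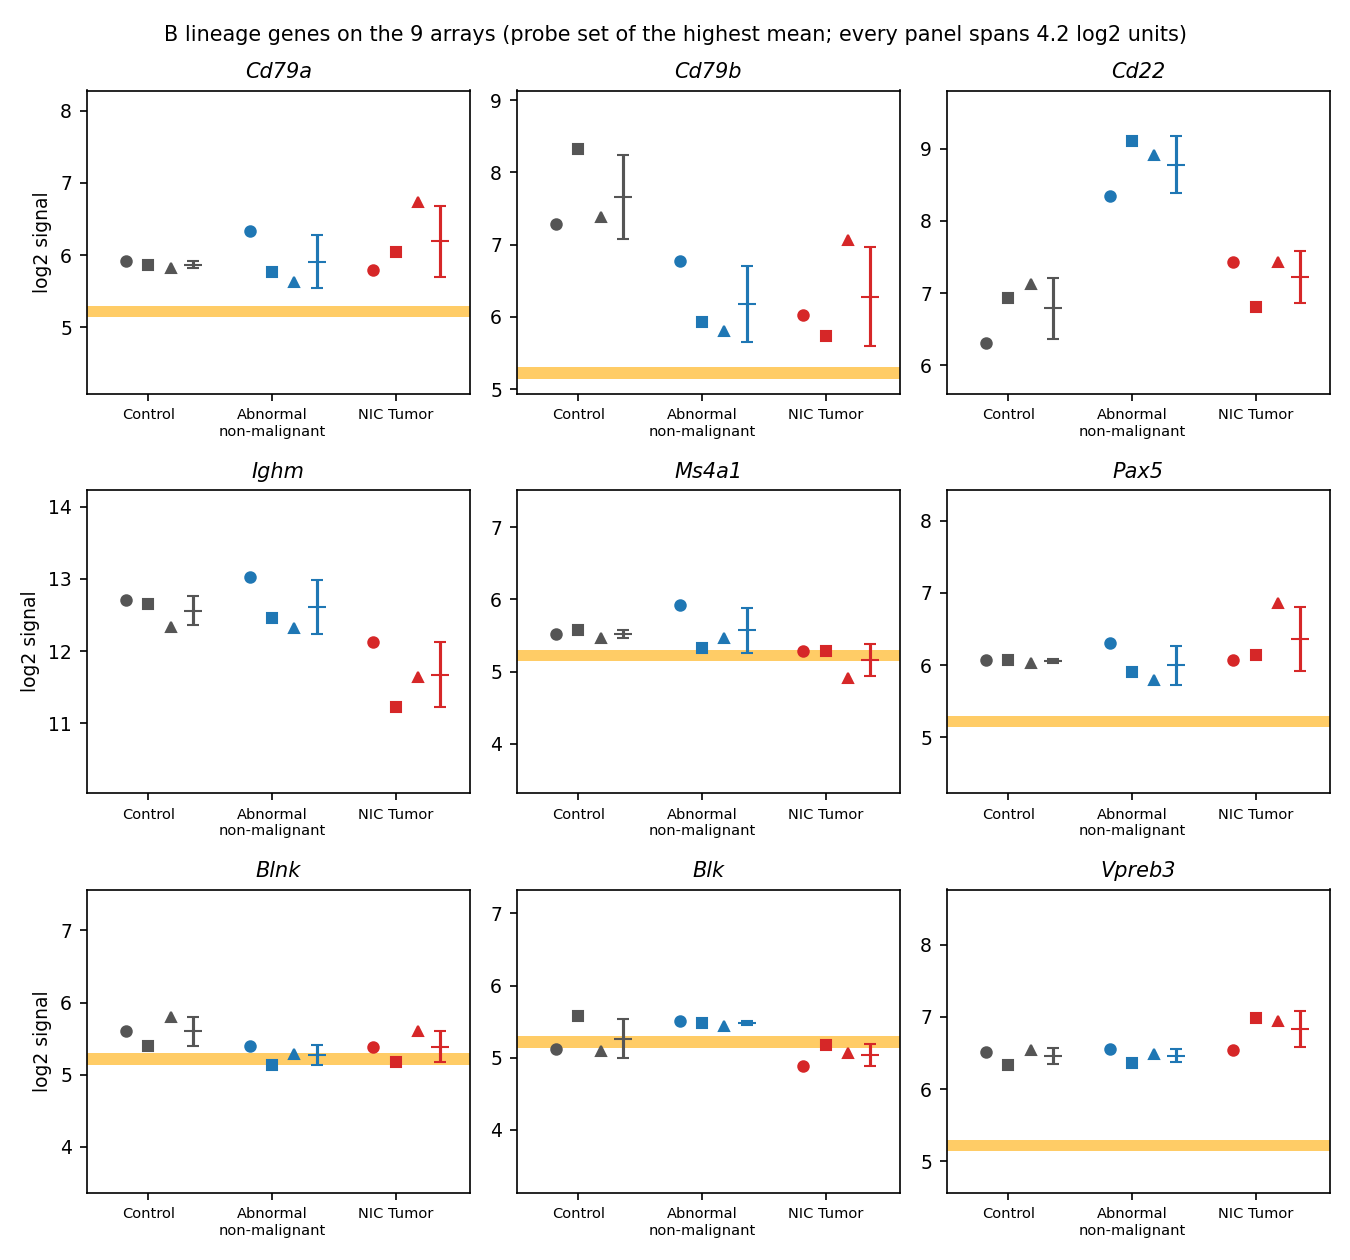
Log2 signal of the 9 B lineage genes on each array: circles, squares and triangles are replicates 1, 2 and 3, the bars beside them the mean ± SD of each group (n = 3), and the yellow band the 40th percentile of the arrays. Cd22 is higher in the 3 non-malignant samples than in all others, Cd79b is highest in the 3 controls, Ighm is lowest in the 3 tumors, and none of the other 6 genes passed the test in any comparison.

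Cd22 was the member that separated the abnormal non-malignant samples from both other groups. Its probe set 1419768_at read 6.31, 6.93 and 7.13 in controls 1, 2 and 3, then 8.34, 9.1 and 8.91 in non-malignant samples 1, 2 and 3, and 7.43, 6.8 and 7.43 in tumors 1, 2 and 3 (log2 signal). All 3 non-malignant values lay above all 6 others, and the tumors overlapped the controls. Cd22 thus rose from 6.79 ± 0.42 (SD, n = 3) in controls to 8.78 ± 0.4 in non-malignant samples, a log2 fold change of 1.99 ± 0.29 (SE), or 3.98-fold (limma, adjusted p = 0.00399). In tumors against non-malignant samples the log2 fold change was −1.56 ± 0.29 (2.94-fold lower, limma adjusted p = 0.0251) and in tumors against controls 0.43 ± 0.29 (adjusted p = 0.323). The rise over controls passed under all 21 alternative settings, at 1.75 to 2.22. The fall in tumors passed under 15 of the 21 and ended without non-malignant 2, non-malignant 3 or tumor 2, with the controls left out of the fit, and with non-malignant 2 and 3 averaged, at −2.05 to −1.35 over all settings.

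The second Cd22 probe set gave a less even picture. It stayed under the 40th percentile on all controls (3.64 to 3.85) and all tumors (3.69 to 4.92), and among the non-malignant samples it read 3.97 in sample 1 but 6.12 and 5.97 in samples 2 and 3. It was above the percentile on only 2 arrays and was therefore not tested. The mean of both probe sets was still called between non-malignant samples and controls but not between tumors and non-malignant samples.

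The promoter of Cd22 is shown because this member carried the clearest difference, and that of Cd79a because this partner of the receptor was called in no comparison. Each window is the 250 bases before an annotated start, from RefSeq on GRCm38.p6, printed 5′ to 3′ on the strand of the gene: Cd22 at chr7:30879029-30879278 (minus strand) and Cd79a at chr7:24897247-24897496 (plus strand). Capitals mark matches to the motifs searched.
Cd22: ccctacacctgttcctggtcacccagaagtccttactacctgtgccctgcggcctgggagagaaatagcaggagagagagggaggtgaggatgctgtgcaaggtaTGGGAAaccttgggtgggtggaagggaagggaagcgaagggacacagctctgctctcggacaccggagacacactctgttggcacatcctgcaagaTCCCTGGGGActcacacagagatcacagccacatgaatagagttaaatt
Cd79a: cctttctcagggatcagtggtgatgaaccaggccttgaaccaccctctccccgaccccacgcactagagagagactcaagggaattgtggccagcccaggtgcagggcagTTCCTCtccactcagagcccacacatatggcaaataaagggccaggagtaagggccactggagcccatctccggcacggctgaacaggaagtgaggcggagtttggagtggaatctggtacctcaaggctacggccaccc
The search covered both strands for the core TGGGAA of RBPJ, the DNA-binding partner of NOTCH1, the E-box CAGCTG, the EBF motif (TCCC and GGGA with 2 bases of any kind between them), the octamer ATGCAAAT and the ETS or PU.1 core GAGGAA. The window of Cd22 held 1 RBPJ core, beginning at position −145 from the start, and 1 EBF motif, TCCCTGGGGA, beginning at −49. The window of Cd79a held 1 ETS core on the opposite strand. Among all 32851 windows of this length, 21.6% held an RBPJ core, 0.779% an EBF motif, 23.3% an ETS core, 13% the E-box and 1.6% an octamer. RBPJ and ETS cores are thus common letters, and a match is a description of the sequence and not of binding.

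A window was at hand for 5 of the 9 members. Those of Blnk and Vpreb3 each held 1 octamer, the letters read by the OCT factors and their B cell coactivator OCA-B, and that of Pax5 held none of the 5 motifs. The window of Vpreb3 (chr10:75948050-75948299, plus strand) is printed to show the octamer, which begins at position −45 from the start and reads ATTTGCAT on the printed strand.
Vpreb3: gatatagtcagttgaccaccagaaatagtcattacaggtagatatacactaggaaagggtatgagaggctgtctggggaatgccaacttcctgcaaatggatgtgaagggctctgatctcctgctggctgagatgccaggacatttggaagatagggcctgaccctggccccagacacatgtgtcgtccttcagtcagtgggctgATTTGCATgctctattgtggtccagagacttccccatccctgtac

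The chains of the receptor complex did not move together. Cd79a, the first of the signalling chains, read 5.92, 5.87 and 5.82 in controls, 6.33, 5.77 and 5.63 in non-malignant samples and 5.8, 6.04 and 6.73 in tumors. The groups overlapped, with log2 fold changes of 0.04 ± 0.25 (SE) in non-malignant samples and 0.32 ± 0.25 in tumors against controls (limma adjusted p = 0.992 and 0.411). The highest value was that of tumor 3, the array whose dim probe sets stood higher, and without it the tumor difference was 0.04.

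Cd79b, the partner chain, stood highest in the controls. Its probe set 1417640_at read 7.29, 8.33 and 7.38 in controls 1, 2 and 3, 6.78, 5.93 and 5.81 in non-malignant samples and 6.03, 5.74 and 7.06 in tumors. Every control lay above every other array, with control 2 well above the other two and with non-malignant 1 and tumor 3 nearest to the controls. Against controls the log2 fold change was −1.38 ± 0.41 (SE) in tumors, where Cd79b passed narrowly (2.61-fold lower, limma adjusted p = 0.047), and −1.49 ± 0.41 in non-malignant samples, where it did not pass (adjusted p = 0.0966). Tumors and non-malignant samples differed by 0.1 ± 0.41 (adjusted p = 0.886). The tumor call held under 8 of 21 alternative settings and ended without any 1 control, non-malignant 2, non-malignant 3, tumor 1 or tumor 2, and with non-malignant 2 and 3 averaged. The sign was negative under all 21 in both comparisons with controls, at −1.79 to −1.05. In non-malignant samples Cd79b passed with array weights, without tumor 3, and when the tumors were left out of the fit.

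Ighm encodes the heavy chain of IgM, and its 11 probe sets disagreed in level and in direction. The constant region of this gene is known to give transcripts without a rearranged V region in T lineage cells as well as in B cells. The 2 brightest probe sets, 1427351_s_at and 1427329_a_at, read between 10.14 and 13.03, and the other 9 between 3.76 and 8.37. The suffixes mark probe sets that share probes with related transcripts (s, x) or with several transcripts of 1 gene (a), and levels of different probe sets are not on a common scale.

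The brightest probe set stood for Ighm and was lowest in tumors. It read 12.7, 12.65 and 12.33 in controls, 13.03, 12.46 and 12.32 in non-malignant samples and 12.13, 11.23 and 11.64 in tumors. All tumors lay below all other arrays, and the controls and non-malignant samples overlapped. Ighm fell in tumors against controls by 0.89 ± 0.25 (SE) on the log2 scale (1.86-fold, limma adjusted p = 0.038), was 0.05 ± 0.25 higher in non-malignant samples than in controls (adjusted p = 0.992) and stood at −0.94 ± 0.25 in tumors against non-malignant samples (adjusted p = 0.0633). The tumor call held under 10 of 21 alternative settings. It ended without any 1 control, non-malignant 2, non-malignant 3, tumor 2 or tumor 3, with non-malignant 2 and 3 averaged and with the mean of all Ighm probe sets, where the value was 0.1.

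The second bright probe set was also lowest in tumors. It read 11.75, 11.61 and 11.43 in controls, 11.4, 11.58 and 11.49 in non-malignant samples and 11.07, 10.29 and 10.14 in tumors, and with every probe set fitted on its own it was −1.1 against controls (limma adjusted p = 0.0191). Among the other 9, the probe sets 1427870_x_at and 1425247_a_at were higher in all tumors than in all other arrays, by 0.6 and 0.5 against controls, without passing (adjusted p = 0.126 and 0.0951). Of these 9, 5 were bright enough to test and limma called 0 in each comparison (0 for non-malignant samples and 2 for tumors against controls, and 3 for tumors against the non-malignant group, had an unadjusted p under 0.05), beside 2.2% of all 28123 probe sets between non-malignant samples and controls, 11.7% for tumors against controls and 1.5% for tumors against the non-malignant group. Tumor 3 was the highest of all arrays for 5 of the 9. Ighm thus gave a lower reading in tumors by its 2 bright probe sets and higher or level readings by the dimmer ones.

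**Figure D2:**
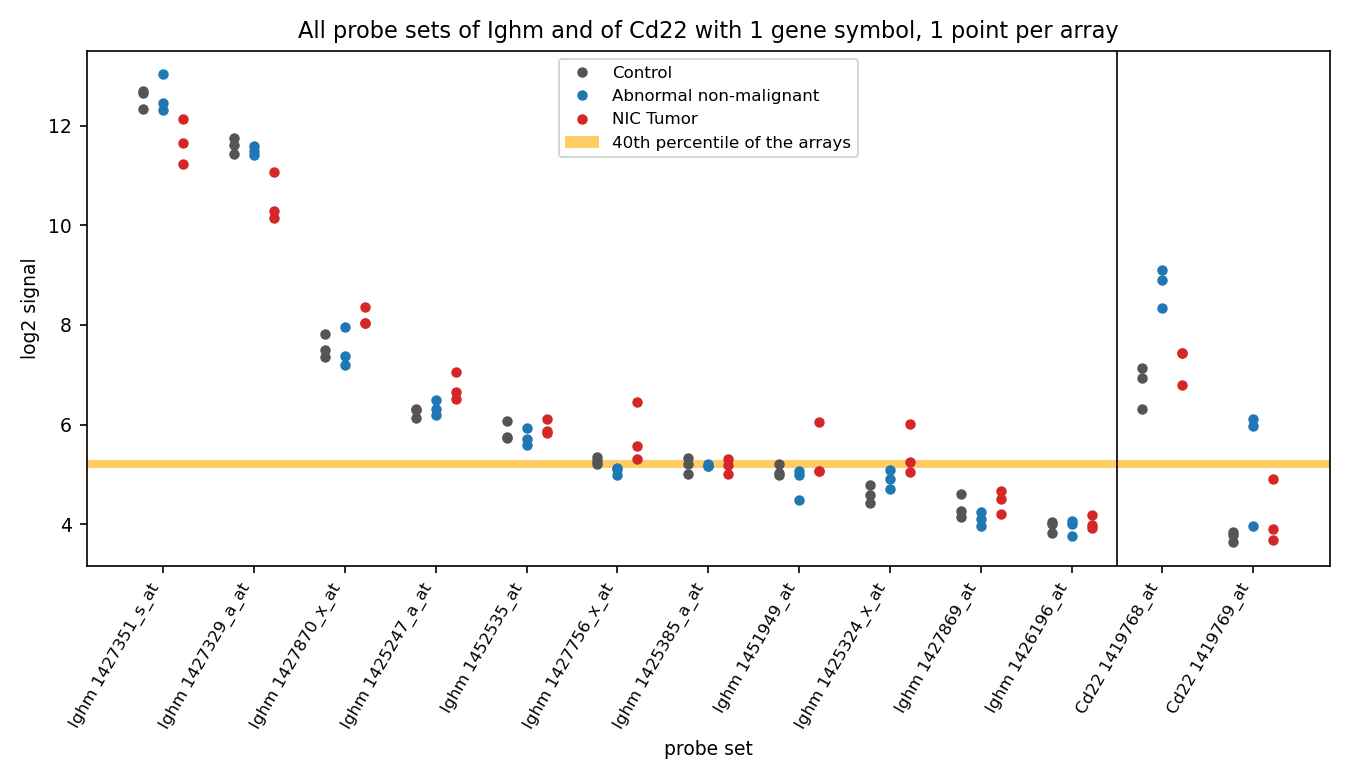
Log2 signal of the 11 Ighm and 2 Cd22 probe sets with 1 gene symbol, 1 point per array and the groups side by side, with the 40th percentile of the arrays as a yellow band. The tumors are lowest for the 2 brightest Ighm probe sets and highest for the next 2, and the second Cd22 probe set rises above the band in non-malignant samples 2 and 3 only.

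Ms4a1, which encodes the B cell surface protein CD20, was close to background throughout. Its brighter probe set read 5.52, 5.58 and 5.47 in controls, 5.92, 5.32 and 5.47 in non-malignant samples and 5.29, 5.29 and 4.91 in tumors, and its other probe set 2.95 to 3.34. All tumors lay below all other arrays, with tumor 3 under the 40th percentile of its array. The log2 fold change of tumors against controls was −0.36 ± 0.18 (limma adjusted p = 0.191) and that of non-malignant samples 0.05 ± 0.18.

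Pax5, the factor that holds cells in the B lineage, showed no difference beyond the spread of the samples. It read 6.07, 6.07 and 6.03 in controls, 6.31, 5.9 and 5.79 in non-malignant samples and 6.07, 6.14 and 6.86 in tumors, and its second probe set never passed the 40th percentile of any array. Tumor 3 was again the highest. The differences from controls were −0.06 ± 0.22 (SE) in non-malignant samples and 0.3 ± 0.22 in tumors, 0.05 without tumor 3 (limma adjusted p = 0.984 and 0.377 with all arrays).

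Blnk, Blk and Vpreb3 varied little. Blnk, the adaptor that links SYK to phospholipase C, read 5.61, 5.4 and 5.8 in controls, 5.4, 5.13 and 5.28 in non-malignant samples and 5.38, 5.17 and 5.61 in tumors. Controls lay at or above the non-malignant samples and overlapped the tumors, with −0.34 ± 0.16 in non-malignant samples and −0.21 ± 0.16 in tumors against controls (limma adjusted p = 0.417 and 0.375). Blk, the kinase, read 5.12, 5.58 and 5.09 in controls, 5.51, 5.48 and 5.44 in non-malignant samples and 4.88, 5.18 and 5.07 in tumors. It was above the 40th percentile on all non-malignant arrays, on control 2 alone among the controls and on no tumor, and tumors against non-malignant samples gave −0.43 ± 0.15 (adjusted p = 0.125). Vpreb3, a chaperone-like protein bound to immunoglobulin chains in early B cells, read 6.51, 6.34 and 6.54 in controls, 6.55, 6.36 and 6.48 in non-malignant samples and 6.54, 6.99 and 6.95 in tumors. Tumors 2 and 3 stood above all other arrays and tumor 1 did not, with 0.36 ± 0.16 for tumors against controls (adjusted p = 0.145), which passed without tumor 1 and with array weights.

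**Figure D3:**
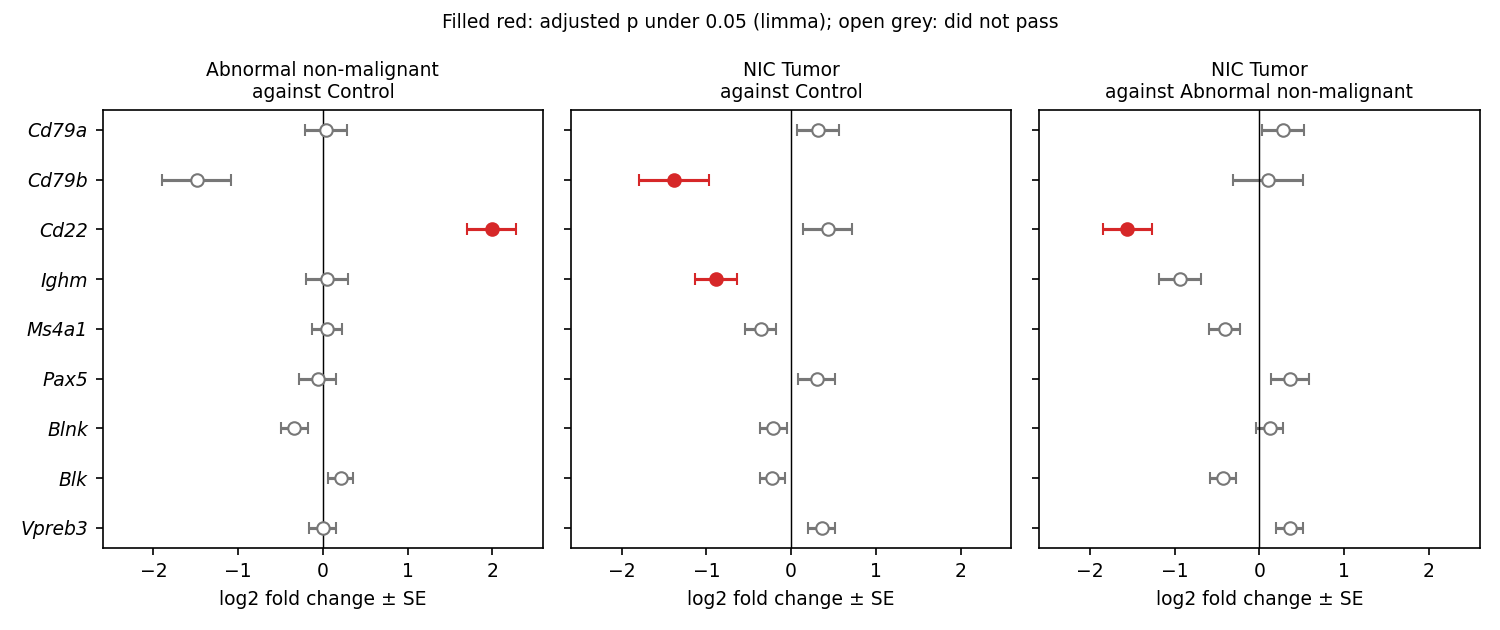
Log2 fold changes of the 9 members with their standard errors in the 3 comparisons of 3 against 3 samples; filled red points passed at an adjusted p under 0.05 by limma. Cd22 passes upward in non-malignant samples against controls and downward in tumors against non-malignant samples, and Cd79b and Ighm pass downward in tumors against controls.

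Few of the 9 members were called, and the genes differed by comparison. Between non-malignant samples and controls 1 of 9 rose, Cd22, and 0 fell by limma, while over all genes tested 3.53% were called, 2.87% higher and 0.655% lower. An unadjusted p under 0.05 was reached by 2 of 9 members and by 13.3% of all genes. The groups did not overlap for 3 members, Cd22 (higher), Cd79b and Blnk (lower), where 26.1% of all genes did not overlap, 17.0% higher and 9.16% lower. The 8 members that were not called had log2 fold changes between −1.49 and 0.21.

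Between tumors and controls 2 of 9 fell, Cd79b and Ighm, and 0 rose by limma, beside 15.7% of all genes, 8.49% higher and 7.19% lower. An unadjusted p under 0.05 was reached by 3 of 9 members and by 32.2% of all genes. The groups did not overlap for 3 members, all lower (Cd79b, Ighm and Ms4a1), where 32.5% of all genes did not overlap, 18.2% higher and 14.3% lower. The 7 that were not called lay between −0.36 and 0.43.

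Between tumors and non-malignant samples 1 of 9 was lower, Cd22, and 0 were higher by limma, beside 4.23% of all genes, 1.53% higher and 2.7% lower. An unadjusted p under 0.05 was reached by 5 of 9 members and by 25.9% of all genes. The groups did not overlap for 4 members, all lower (Cd22, Ighm, Ms4a1 and Blk), where 27.1% of all genes did not overlap, 12.3% higher and 14.8% lower. The 8 that were not called lay between −0.94 and 0.36. The median log2 fold change of the members was 0.04, −0.21 and 0.1 in the 3 comparisons, against 0.01, 0.06 and 0.03 over all genes tested. Any pair of these comparisons shares a group of arrays.

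Within the non-malignant group the members were ordered by array. Non-malignant 1 was the highest of the 3 for 8 of the 9 members, all but Cd22, for which it was the lowest. Over all genes tested it was the highest of its group for 49.1%. The gaps were largest for Cd79b (6.78 against 5.93 and 5.81), Ighm (13.03 against 12.46 and 12.32), Cd79a (6.33 against 5.77 and 5.63) and Ms4a1 (5.92 against 5.32 and 5.47). In the tumors, tumor 3 was the highest of its group for 4 members, beside 34.4% of all genes.

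By profile over the 9 arrays, the genes nearest to Cd22 were Fstl3, a secreted inhibitor of activins, Fabp4, a fatty acid-binding protein, and Irgm1, an interferon-induced GTPase. Their centred log2 values differed from those of Cd22 by a root mean square of 0.31, 0.32 and 0.33. The nearest to Cd79b were Rbm24 (0.31), Art4 (0.31) and Laptm4b (0.35), and those nearest to Ighm were Helz (0.14), Zfp810 (0.17) and Plekhm1 (0.17). No other member was among these neighbours.

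The other genes of the B lineage were described from a list of 59 names, of which 52 had a probe set of their own and 43 passed the filter. The list was chosen with earlier results of these data known. A share above that of all genes is thus a description and not independent support. In non-malignant samples against controls 6 rose and 1 fell, which is 16.3% of those tested beside 3.53% of all genes (median log2 fold change 0.06 against 0.01). Cxcr5, 1 of the 6, passed the filter only through the group where it is high. In tumors against controls 4 rose and 4 fell (18.6% beside 15.7%, median 0.05 against 0.06). In tumors against non-malignant samples 0 rose and 4 fell by limma (9.3% beside 4.23%, median −0.2 against 0.03). An unadjusted p under 0.05 was reached by 14 of the 43, and by 25.9% of all genes.

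Among the transcription factors, Irf4 and Pou2af1 stood out, and most of the others were level. Irf4, which acts in activated lymphocytes and plasma cells, read 5.86, 6.5 and 6.23 in controls, 9.58, 10.1 and 9.98 in non-malignant samples and 8.77, 9.17 and 9.18 in tumors. It rose by 3.69 ± 0.22 (SE) in non-malignant samples and by 2.84 ± 0.22 in tumors (limma adjusted p = 3.2e-05 and 0.000197), with no overlap between either group and the controls. Pou2af1, which encodes the octamer coactivator OCA-B, read 5.74, 4.7 and 5.53 in controls, 7.82, 8.12 and 8.12 in non-malignant samples and 8.38, 6.79 and 7.08 in tumors. It rose by 2.7 ± 0.4 and 2.1 ± 0.4 (adjusted p = 0.00466 and 0.00996). Both genes passed in both comparisons under all 21 alternative settings. The other Irf4 probe set, 1421174_at, rose less and did not pass when fitted on its own. It gave 1.33 in non-malignant samples and 1.07 in tumors (limma adjusted p = 0.0761 and 0.0576).

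Foxo1, which B and T progenitors share, rose by 1.55 ± 0.35 in non-malignant samples (adjusted p = 0.0433), a call that held under 9 of 21 settings and was lost when a control, a non-malignant array or tumor 2 was left out in turn, and with non-malignant 2 and 3 averaged. Of 8 transcription factors tested, 3 rose in non-malignant samples and 2 in tumors against controls, beside 2.87% and 8.49% of all genes called higher. Between tumors and non-malignant samples 0 passed limma, beside 4.23% of all genes (2 had an unadjusted p under 0.05). The largest values there were those of Foxo1 (−1.38) and Irf4 (−0.85). Spib, like Ebf1, did not pass the filter. Bach2, a repressor of plasma cell genes, was level by the probe set that stood for it (−0.05 in non-malignant samples and 0.02 in tumors), whereas another of its probe sets, 1436515_at, was lower by −1.24 and −1.2 with each probe set fitted on its own (adjusted p = 0.0358 and 0.0179).

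Of the 3 pre-B receptor and immunoglobulin genes tested, limma called 0 in non-malignant samples (0 at an unadjusted p under 0.05), where the largest values were those of Jchain, the joining chain of secreted antibody (0.63), and Vpreb1 (0.12). Vpreb1, a surrogate light chain, was called in tumors against controls (measured −0.68 ± 0.2, adjusted p = 0.0451), but it read above the 40th percentile on only 1 control and 0 tumors. No size of change is therefore drawn from it, although it is 1 of the 4 genes counted as lower there, and the call held under 6 of the 16 settings in which it could be tested. The highest of the 3 in tumors against non-malignant samples was Igll1 at 0.11, with Vpreb1 at −0.81 and Jchain at −0.71, and 0 passed limma (1 had an unadjusted p under 0.05).

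Of the 13 receptor signalling genes tested, 3 were called in at least 1 comparison. The share called was 15.4% both in non-malignant samples and in tumors against controls, beside 3.53% and 15.7% of all genes. Between tumors and non-malignant samples it was 7.69%, beside 4.23%. Syk, the kinase that binds CD79 tails and is active in early thymocytes too, read 7.93, 7.91 and 8.22 in controls, 7.03, 6.57 and 6.77 in non-malignant samples and 6.14, 6.63 and 5.69 in tumors, with no overlap between the controls and either group. It fell by 1.23 ± 0.24 on the log2 scale in non-malignant samples (adjusted p = 0.021, called under 14 of 21 settings) and by 1.87 ± 0.24 in tumors (adjusted p = 0.00161, called under all 21). The non-malignant call of Syk ended without any 1 control, non-malignant 2 or non-malignant 3, and with non-malignant 2 and 3 averaged. With each probe set fitted on its own, Syk 1418262_at gave −1.06 in non-malignant samples and −1.23 in tumors (limma adjusted p = 0.00891 and 0.00275). Its probe set 1457239_at gave −0.61 and −0.22 without passing (adjusted p = 0.566 and 0.693). Cd72, an inhibitory coreceptor of B cells like Cd22, read 5.75, 5.88 and 5.93 in controls, 6.57, 6.91 and 6.9 in non-malignant samples and 6.15, 6.01 and 6.06 in tumors. It rose by 0.94 ± 0.14 in non-malignant samples (adjusted p = 0.00466, called under all 21 settings) and was −0.72 ± 0.14 in tumors against non-malignant samples (adjusted p = 0.0277, called under 13 of 21, ending among others without non-malignant 2, non-malignant 3, control 1, control 3 or tumor 2 and with non-malignant 2 and 3 averaged, where the adjusted p was 0.143). Vav2, an exchange factor, was −1.4 ± 0.39 in tumors against controls (adjusted p = 0.0374), with 10 of 21 settings keeping the call, and lost it without any 1 control, any 1 non-malignant array, tumor 2 or tumor 3, and with non-malignant 2 and 3 averaged (adjusted p = 0.0622). Another Vav2 probe set, 1421272_at, was level there at −0.13 with each probe set fitted on its own (limma adjusted p = 0.68).

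Among 8 B cell surface genes tested, Gpr183, a chemotactic receptor for oxysterols, and Cxcr5, the receptor that guides cells to follicles, were called higher in non-malignant samples. Over all genes 2.87% were called higher there. Gpr183 read 5.75, 5.63 and 5.54 in controls, 8.87, 9.85 and 9.61 in non-malignant samples and 8.36, 6.08 and 8.17 in tumors, where tumor 2 lay near the controls. It rose by 3.81 ± 0.53 in non-malignant samples (adjusted p = 0.00333, all 21 settings) and by 1.9 ± 0.53 in tumors (adjusted p = 0.0383, 8 of 21 settings, from 0.78 to 2.63), the latter call ending without any 1 control, non-malignant 2, non-malignant 3, tumor 1 or tumor 3 and with non-malignant 2 and 3 averaged (adjusted p = 0.0596). Its other probe set, 1457691_at, fitted on its own, gave 1.25 in non-malignant samples and 0.51 in tumors (limma adjusted p = 0.0372 and 0.198). Cxcr5 read 4.63, 4.42 and 4.54 in controls, all under the 40th percentile, 5.28, 5.5 and 5.56 in non-malignant samples and 4.62, 4.53 and 4.57 in tumors. Set against that percentile it was at least 0.25 higher in non-malignant samples than in controls (measured 0.92 ± 0.12, adjusted p = 0.00228) and at least 0.22 lower in tumors than there (measured −0.87, adjusted p = 0.00668). Cxcr5 passed the filter only through the non-malignant arrays, the group where it is high, so both calls rest on that selection. It is 1 of the 6 genes counted as higher and 1 of the 4 counted as lower above. Both calls held under the 16 settings in which Cxcr5 could be tested. It could not be tested with a non-malignant array left out or with non-malignant 2 and 3 averaged.

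Of 6 MHC class II genes tested, limma called 0 in non-malignant samples (1 at an unadjusted p under 0.05) and 0 in tumors against controls (1), where the largest values were those of H2-Ab1 (0.7 and 0.87) and, in non-malignant samples, H2-DMa (0.63). H2-DMa, which helps load peptides, was −0.95 ± 0.2 in tumors against non-malignant samples (adjusted p = 0.0353, called under 10 of 21 settings and not without control 1, control 3, any 1 non-malignant array, tumor 2 or tumor 3, nor with non-malignant 2 and 3 averaged, at 0.141). Its other probe set, 1459872_x_at, stood at 0.13 there with each probe set fitted on its own (limma adjusted p = 0.788). Of 5 plasma cell genes, limma called 0 in non-malignant samples (0 at an unadjusted p under 0.05), with the largest values for Sdc1 (0.47) and Mzb1 (−0.2). The other Sdc1 probe sets stood at 2.19 (1415943_at), 2.72 (1437279_x_at) and 0.44 (1448158_at) there. Fitted each on its own, they did not pass (limma adjusted p = 0.27, 0.136 and 0.871). In tumors Xbp1, a factor of the secretory programme, fell by 2.2 ± 0.26 on the log2 scale against controls and stood −2.31 ± 0.26 against non-malignant samples (adjusted p = 0.0012 and 0.00319, both under all 21 settings). Of the other 3 Xbp1 probe sets, 1420012_at was at −0.16 in tumors against controls and the remaining ones at −1.82 and −1.94. Sdc1, the plasma cell marker CD138, rose in tumors by 1.54 ± 0.4 (adjusted p = 0.0317, 12 of 21 settings, from 0.69 to 3.55), with 8.78, 7.05 and 8.79 in tumors 1, 2 and 3 against 6.5 to 6.91 in controls, and lost the call without any 1 control, non-malignant 2, non-malignant 3 or tumor 3, and with non-malignant 2 and 3 averaged (adjusted p = 0.0548). The upper end of that range came from a refit in which 1415943_at stood for Sdc1. Fitted each on its own, 1415943_at, 1437279_x_at and 1448158_at were 3.66, 4.18 and 1.98 in tumors against controls (limma adjusted p = 0.0214, 0.0125 and 0.0392).

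**Figure D4:**
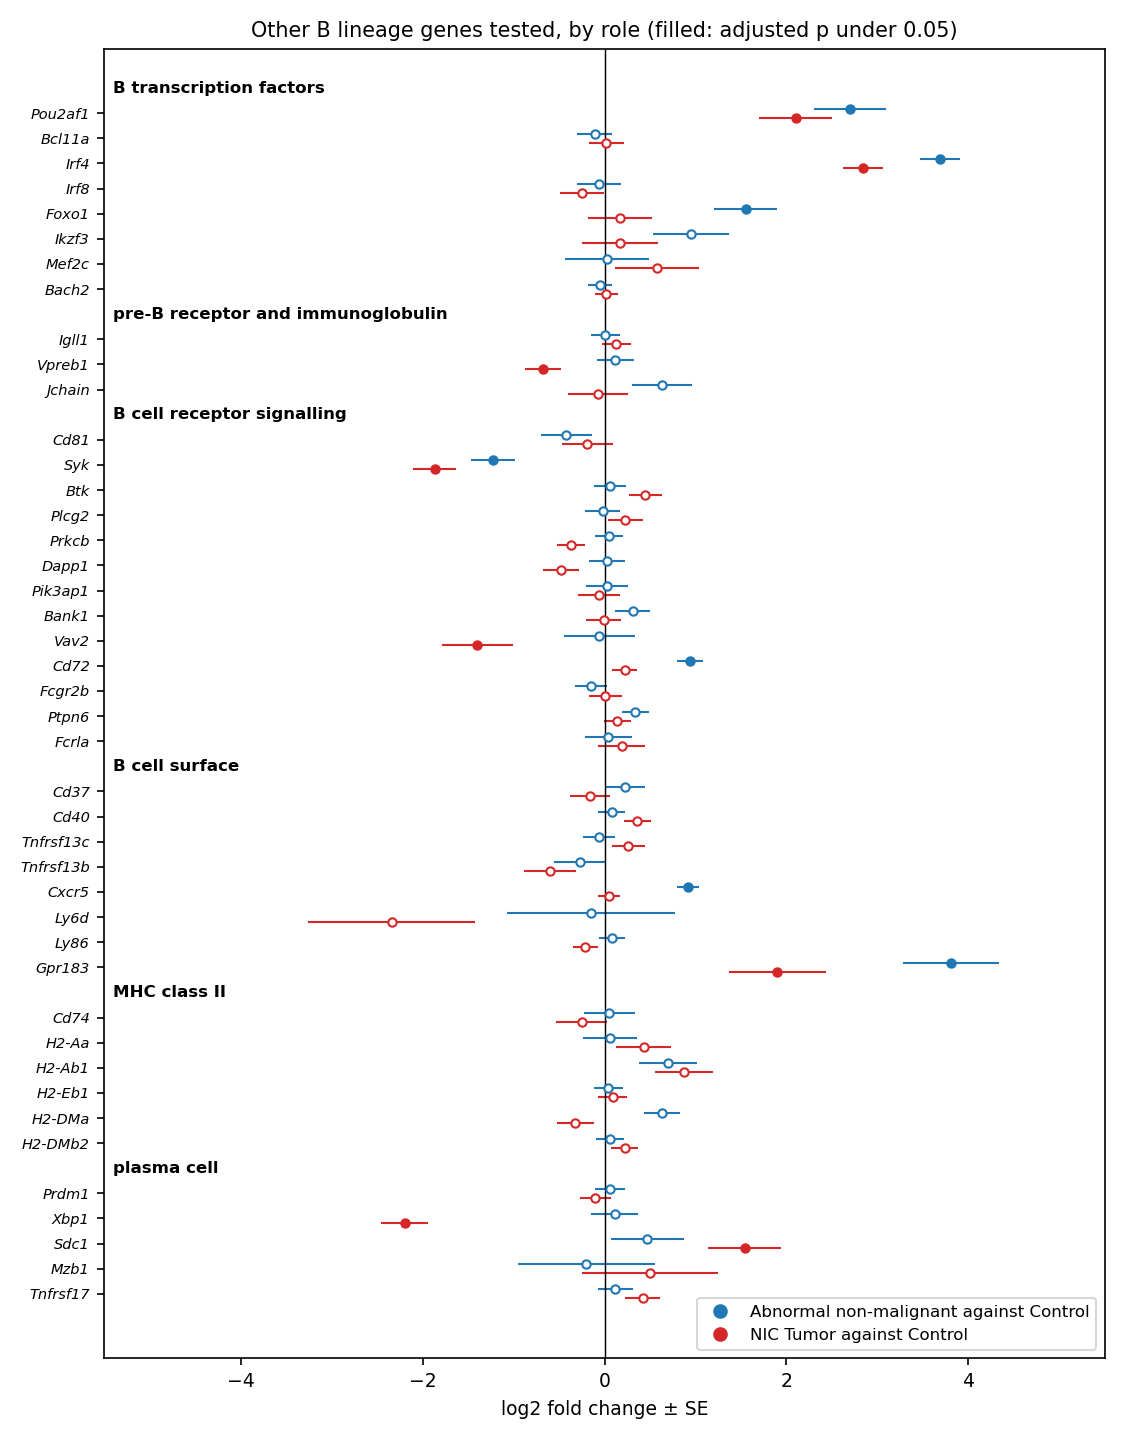
Log2 fold changes with standard errors of the 43 other B lineage genes tested, grouped by role, for non-malignant samples (blue) and tumors (red) against the same 3 controls; filled points passed at an adjusted p under 0.05 by limma. Irf4, Pou2af1 and Gpr183 lie to the right in both, Syk to the left in both, and Xbp1 lies to the left with a filled point in tumors.

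Markers of other cell types that could share these genes were measured beside them. Over all genes limma called 3.53% in non-malignant samples against controls and 15.7% in tumors against controls. In tumors against non-malignant samples it called 4.23%. The mean level of the 8 plasmacytoid dendritic markers was 6.75 to 7.04 in controls, 6.75 to 6.91 in non-malignant samples and 6.05 to 6.34 in tumors, with Siglech between 5.02 and 5.42 on all arrays but tumor 3 (6.04). Of the 7 tested, Irf7, also an interferon response gene, was the 1 called in non-malignant samples against controls (2.13). The others there were Bst2 at 0.96, Siglech at −0.08, Cox6a2 at −0.12, Tcf4 at −0.54, Pacsin1 at −0.68 and Ccr9 at −2.55. In tumors against controls 2 of the 7 were called, both lower and under all 21 settings. These were Ccr9 (mean 12.17 in controls, 7.48 in tumors) and Tcf4 (7.41 and 5.59). Of the uncalled genes, Pacsin1 stood lower in tumors (6.3 and 6). Siglech (5.28 and 5.52), Bst2 (6.74 and 7.07), Irf7 (6.64 and 7.14) and Cox6a2 (6.67 and 6.86) stood higher. In tumors against non-malignant samples 2 of the 7 were called, Irf7 (−1.62) and Tcf4 (−1.28). Both calls were lost without non-malignant 2 or non-malignant 3 and with both averaged (limma adjusted p = 0.0868 and 0.0549). The mean of the 10 myeloid markers was 5.58 to 5.84, 6.54 to 6.57 and 5.85 to 7.01 in the 3 groups, with 1 of 9 tested called in non-malignant samples, Ctss (2.34), and Lyz2 at 6.78 to 7.42 over all arrays. Ctss lost its call when control 3 or either of non-malignant 2 and 3 was left out, and when that pair was averaged (adjusted p = 0.0836). S100a8 (2.76) and S100a9 (2.61) did not pass, and the other 6 lay between 0.03 and 0.34. The mean of the 5 NK markers was 5.51 to 5.69, 6.58 to 6.7 and 5.94 to 6.1, with Ncr1 at 5.42 to 5.66 on all arrays. Of 4 tested, Prf1 (3.8) and Nkg7 (1.3) were called in non-malignant samples against controls, with Eomes at 0.02. Both were called lower in tumors against non-malignant samples, Nkg7 under all 21 settings and Prf1 under 9. The mean of the 6 dendritic cell markers was 5.7 to 5.75, 5.95 to 6.14 and 5.88 to 6.52, with 0 of 4 past limma's threshold in each comparison (0, 1 and 1 had an unadjusted p under 0.05) and Itgax at 5.4 to 6.34. Irf7, Ctss, Prf1 and Nkg7 thus rose in the same samples as Cd22, and most of the other markers of these lists did not pass there. Unlike Cd22, Ctss and Prf1 were also called higher in tumors against controls, under all 21 settings. Their means were 5.95 in controls and 8.45 in tumors for Ctss, and 5.66 and 7.94 for Prf1. Irf7 and Nkg7 were not called in that comparison. The part of these genes in the rise of Cd22 was not tested.

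The T cell and remaining lists were measured in the same way. The mean of the 10 T cell markers was 11.41 to 11.53 in controls, 11.38 to 11.51 in non-malignant samples and 10.45 to 11.14 in tumors. In tumors against controls 4 of 10 fell, beside 7.19% of all genes: Cd5 (−1.73), Bcl11b (−1.68), Thy1 (−1.29) and Gata3 (−1.28). Cd79b and Ighm were called lower in the same comparison. In non-malignant samples against controls Cd79b stood at −1.49 without passing (limma adjusted p = 0.0966). Limma called 0 of the 10 T cell markers lower there, beside 0.655% of all genes. Thy1 (−0.62), Gata3 (−0.51) and Bcl11b (−0.45) were lower there without overlap, 3 of the 10 beside 9.16% of all genes. A link of Cd79b or Ighm to these markers was not tested. The call of Gata3 held under 12 of 21 settings and ended when any 1 control or non-malignant array was left out and with non-malignant 2 and 3 averaged (adjusted p = 0.0578). That of Thy1 ended without any 1 control, and that of Bcl11b without control 2, control 3 or tumor 2. In non-malignant samples Cd2 rose (1.42). Of 4 erythroid and 5 thymic stroma markers tested, limma called 0 in each comparison (up to 3 and 0 at an unadjusted p under 0.05). The erythroid mean was 5.82 to 6 in controls, 6.52 to 6.65 in non-malignant samples, where it too stood above the controls, and 6.28 to 7.72 in tumors. The stroma mean was 5.43 to 5.98 over all arrays, and Hba-a1 and Col1a1 passed the 40th percentile on 0 and 1 arrays.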

How the data were processed

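Expression was measured on 9 Affymetrix arrays, 3 per group, grouped by their titles. Per the labels, TRIZOL and RNeasy columns were used to extract the RNA, and biotinylated cRNA was hybridised at a core facility. The authors deposited normalized log2 values; background correction, normalization and summarization are not given in the sources used here, and the base was read from the range, 2.68 to 14.57.

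Of 45101 probe sets, 34945 carry 1 symbol, 932 several and 9160 none, and 64 are controls. Tables were handled with pandas 2.3.3 (Python 3.11.15), and limma 3.58.1 (R 4.3.3) fitted 1 mean per group to all 9 arrays (eBayes with trend, residual df 6, prior df 3.6). A gene was tested if its probe set passed the 40th percentile on at least 3 arrays. Comparisons were two-sided and called at a Benjamini-Hochberg adjusted p under 0.05 over all 13288 genes. The model was tested on simulated data. With 3 against 3 samples an exact permutation test cannot go below 0.1. Precision is limited by the small number of arrays.

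The members and lists were chosen with earlier results of these data known. Named genes are all members, the called genes of each list or the largest changes where none was called, the defining markers, and the 3 nearest profiles of each called member. Genes and probe sets beyond this were picked with their values already seen. These are Spib, Ebf1, Bach2, Prkcb, Mef2c, Eif2s3y, Igll1, uncalled markers of other cell types, further probe sets of listed genes and the remaining immunoglobulin probe sets. The 21 alternatives cover normalization, filters, probe sets, variance models, array weights, the samples fitted, the replicate number as a block, averaging of non-malignant 2 and 3, and leaving out each array.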

Additional observations from a re-analysis of the deposited data

How the results depend on the processing

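Over 549 refits of the 9 members in the 3 comparisons under 21 alternatives, 506 kept their side of the threshold, 29 lost a call, 13 gained one and 1 reversed; 21 of the 506 changed sign around 0 without a call. The reversal was Ighm in tumors against controls, 0.1 with the mean of its probe sets. Of 741 refits of other called genes, 620 kept the call and 121 lost it.

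The number of members called was 1 in non-malignant samples against controls, 3 with array weights, 2 with only these groups in the fit and 1 to 2 with 1 array left out. It was 2 in tumors against controls, 1 with quantile normalization, with the mean of probe sets, with all probe sets as rows or with the replicate block, 4 with array weights, 0 without a filter, with only these groups or with non-malignant 2 and 3 averaged, and 0 to 2 with 1 array left out. It was 1 in tumors against non-malignant samples, 0 with the mean of probe sets, with only these groups or with non-malignant 2 and 3 averaged, 4 with array weights, 2 with the replicate block and 0 to 3 with 1 array left out.

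Over all genes, 469 were called between non-malignant samples and controls, 206 with non-malignant 2 and 3 averaged, 2420 with array weights, 1121 with only these groups and 203 to 709 with 1 array left out (the extremes without non-malignant 2 and without tumor 1). Tumors against controls gave 2084, with 3278 of all probe sets, 4884 with array weights, 842 with only these groups and 922 to 4117 with 1 array left out (without control 2 and without tumor 1). Tumors against non-malignant samples gave 562, 66 with non-malignant 2 and 3 averaged, 5698 with array weights, 110 with only these groups and 57 to 3407 with 1 array left out (without non-malignant 3 and without tumor 1). The cause of these differences was not tested.

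Arrays of the same number did not deviate together throughout (correlations of −0.05 to 0.22), so the replicate numbers were not taken as pairs. With the replicate block 399, 1916 and 287 genes were called in the 3 comparisons. An array signal under the 40th percentile was not told from background, which limits Ms4a1, Blnk, Blk and the second probe sets of Cd22 and Pax5. Cd79a (5.63 to 6.73) and the brighter Pax5 probe set (5.79 to 6.86) passed it on all 9 arrays. Both were still dim beside array medians of 5.67 to 5.77. Neither was among the 4 members that passed the filter at the 60th percentile.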

Other observations

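Immunoglobulin probe sets outside the 9 genes differed between arrays of the same group. The 3 probe sets whose annotation names the kappa constant gene Igkc together with V and J genes read 8.81 to 9.25 on control 1, against 6.49 to 6.95 on control 2 and 6.1 to 6.81 on control 3. They read 8.44 to 9.07, 7.85 to 8.65 and 8.12 to 9.09 on non-malignant samples 1, 2 and 3, and 7.19 to 7.99, 6.26 to 7.38 and 5.36 to 7.62 on tumors 1, 2 and 3. Control 1 thus read as high as the non-malignant samples. Jchain was highest on the same arrays, at 6.57 on control 1 and 6.67, 6.43 and 5.96 in non-malignant samples, against 5.15 to 5.77 on the other 5. Cd22 did not follow this order, since control 1 was its lowest array.

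The heavy chain gene Igha stood apart on non-malignant 1. Its probe set 1421653_a_at read 8.5 there, against 6.33 to 7.27 on the other 8 arrays, and 1425763_x_at read 8.17 against 5.44 to 6.94. The same array held the highest Cd79a, Cd79b, Ighm, Ms4a1 and Pax5 of its group. Of the 45 immunoglobulin probe sets outside the members, 17 were bright enough to test and limma called 0 in each comparison (0, 0 and 2 had an unadjusted p under 0.05). The 4 probe sets that name Ighm together with other genes read 3.58 to 5.07 and passed the 40th percentile on 0 arrays.

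In tumor 2 alone, Mzb1, a chaperone of immunoglobulin assembly in B and plasma cells, read 9.97, against 6.54 to 7.77 elsewhere. Mef2c read 7.33 there against 5.22 to 5.47, and Spib 6.5 against 4.1 to 5.39. Markers of other cell types also peaked on tumor 2: the erythroid genes Slc4a1 (9.18), Alas2 (8.56) and Klf1 (7.99) and the myeloid genes S100a8 (8.35), S100a9 (8.28) and Mpo (7.06) were highest there of all 9 arrays, and their part was not tested. The members differed on that array. Cd22 (6.8), Cd79b (5.74), Blnk (5.17) and Ighm (11.23) were each the lowest of the tumors, and Cd79a and Pax5 lay within the range of the others. Vpreb3 (6.99) was the highest of all 9 arrays there. Blk (5.18) was the highest of the tumors, though under the 40th percentile, and Ms4a1 read 5.29 on both tumors 1 and 2.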
